A study of Mus musculus with 15 samples.

Results

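The thymi of C57BL/6J mice with liver tumours were compared with the thymi of normal mice of that strain, 3 against 3. These 6 thymi were chosen by their sample titles and are part of a series of 15 samples that also holds livers and tumour nodules. The normal mice, numbered 2, 3 and 5, were injected intraperitoneally with corn oil. The model mice, numbered 8, 15 and 25, were injected intraperitoneally with diethylnitrosamine (DEN), a DNA-alkylating carcinogen, and carbon tetrachloride (CCl4), a liver toxin, which together induce hepatocellular carcinoma. The study asked how liver cancer affects gene expression in the thymus. Both agents act on the whole animal, so an effect of the tumours and an effect of the injections cannot be told apart in these groups. The labels state no age, sex or time between injection and harvest. Polyadenylated RNA was sequenced with a stranded library kit, and the deposited values are FPKM, fragments scaled to transcript length and to the size of the library.

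The thymus is the organ in which T cells develop. Immature thymocytes rearrange their receptor genes, pass a double-positive stage in the cortex and are selected on epithelial and dendritic cells of cortex and medulla before mature cells leave for the blood. The Src-family kinase Lck starts signalling from the T cell receptor at each of these steps. Its gene has a distal and a proximal promoter, of which the proximal one is known for its activity in thymocytes and the distal one for its activity in mature T cells as well.

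The titles name the 6 samples as thymi while their tissue field names liver or nodule, and the values followed the titles. Rag1, which cuts receptor genes for rearrangement, was at 233 FPKM or more in each of the 6 thymi and at no more than 0.802 FPKM in the 9 livers and nodules. Psmb11, the proteasome subunit of cortical epithelium, was at 20.0 FPKM or more in each thymus and at no more than 0.081 FPKM elsewhere. Normal thymus 3 stood apart from the other thymi. Its log2 levels correlated with those of the other 5 at 0.946 to 0.960 across genes, against 0.965 to 0.982 among the other 5, and at 0.843 to 0.864 against 0.868 to 0.901 across transcripts. These correlations are across genes, which are not independent replicates. Correlations within a group ran from 0.953 to 0.982 and between the groups from 0.946 to 0.981 across genes, so the groups did not separate by this measure. Pth, the parathyroid hormone, was at 70.3 FPKM in normal thymus 5 and at 5.57 FPKM or less in each other thymus, and its part in the results below was not tested.

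The make-up of transcripts differed between the groups while the levels of their genes did not pass the test. Of 17643 transcripts tested with limma on log2(FPKM + 1), 24 passed an adjusted p of 0.05, which is 0.136% of those tested. Of these, 18 rose (0.102%) and 6 fell (0.034%) in model thymi, and they belong to 21 genes. None of these genes passed at the gene level, where 0 of 11332 genes (0%) did. At an unadjusted p under 0.05 stood 1101 transcripts (6.24%) and 1159 genes (10.2%). The share of a transcript in the summed FPKM of all listed transcripts of its gene was tested as well, and 34 of 12376 shares passed (0.275%), 20 higher and 14 lower, in 24 genes, while 594 (4.8%) had an unadjusted p under 0.05. Of the 24 transcripts, 16 also passed by share, and 14 genes were in both sets. Shares of one gene sum to 100%, so the rise of one transcript and the fall of its partner are one observation.

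The transcript with the largest rise was Lck-208, and the sequences below lie before the starts of Lck transcripts. On GRCm38 (mm10) Lck lies on the minus strand at chr4:129548344-129573641. Lck-202 starts 15269 bases upstream of Lck-208, and both join the same second exon. The 2 lines below give 250 bases before each start from RefSeq (GRCm38.p6), all in lower case, at chr4:129573642-129573891 for the distal start and chr4:129558373-129558622 for the proximal one, both read on the minus strand.
Lck distal promoter: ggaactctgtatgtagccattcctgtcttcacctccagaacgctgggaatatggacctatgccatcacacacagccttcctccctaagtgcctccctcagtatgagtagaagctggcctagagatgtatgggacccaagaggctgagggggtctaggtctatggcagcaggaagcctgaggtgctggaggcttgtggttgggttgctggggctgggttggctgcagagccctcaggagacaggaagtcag
Lck proximal promoter: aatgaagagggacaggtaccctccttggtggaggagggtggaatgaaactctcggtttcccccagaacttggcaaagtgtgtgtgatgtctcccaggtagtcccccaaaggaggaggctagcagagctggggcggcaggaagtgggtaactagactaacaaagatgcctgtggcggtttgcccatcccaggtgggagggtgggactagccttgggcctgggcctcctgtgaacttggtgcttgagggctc
Lck-208 reads 33 additional coding bases, 11 codons, at its start, and otherwise shares 1984 exonic bases with Lck-202. Within this pair, 127 bases occur only in Lck-202 and 90 only in Lck-208. Among all 4 listed Lck transcripts, Lck-208 has 5 bases and 0 junctions of its own, since the bases of its first exon are also in Lck-201 and Lck-206. Its level therefore rests on the division of reads with these transcripts as well.

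**Figure D1:**
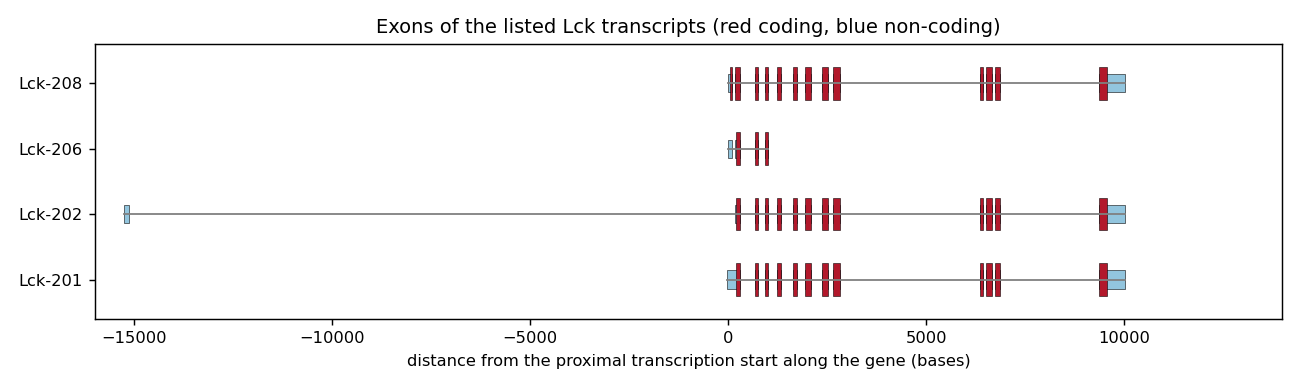
Exons of the 4 listed Lck transcripts by distance in bases from the proximal start (0), with coding parts in red and non-coding parts in blue. Lck-202 alone has a first exon about 15269 bases upstream, and Lck-201, Lck-206 and Lck-208 begin near 0.

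Lck-208 was nearly absent from normal thymi and was the main Lck transcript in model thymi. Its level was 0.686, 0.935 and 1.26 FPKM in normal thymi 2, 3 and 5, and 435, 386 and 406 FPKM in model thymi 8, 15 and 25. The groups were far apart, and the rise was 7.72 on the log2(FPKM + 1) scale (SE 0.143, adjusted p = 3.54e-05). Lck-202, the transcript of the distal start, was at 560, 588 and 582 FPKM in normal thymi and at 97.3, 88.4 and 93.5 FPKM in model thymi. It fell by 2.62 (SE 0.0908, adjusted p = 0.000809). Lck-206, a short transcript with a proximal start, fell from 7.08, 6.12 and 7.29 FPKM to 0.144, 0.0830 and 0.0908 FPKM (adjusted p = 0.0104). Lck-201, which also has a proximal start, lay between 59.2 and 93.9 FPKM in normal and between 66.8 and 70.8 FPKM in model thymi, and the groups overlapped. As shares, Lck-208 made up 0.104%, 0.143% and 0.188% of Lck in normal thymi and 72.3%, 71.3% and 71.2% in model thymi (adjusted p = 0.00061). The share of Lck-202 was 84.6%, 89.9% and 86.6% against 16.2%, 16.3% and 16.4% (adjusted p = 0.00189). The gene as a whole was at 511, 503 and 497 FPKM in normal and 453, 404 and 426 FPKM in model thymi, a change of -0.24 that did not pass (adjusted p = 0.513). Lck-208 and Lck-202 were the only transcripts of the 24 that passed under all 13 alternative settings.

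**Figure D2:**
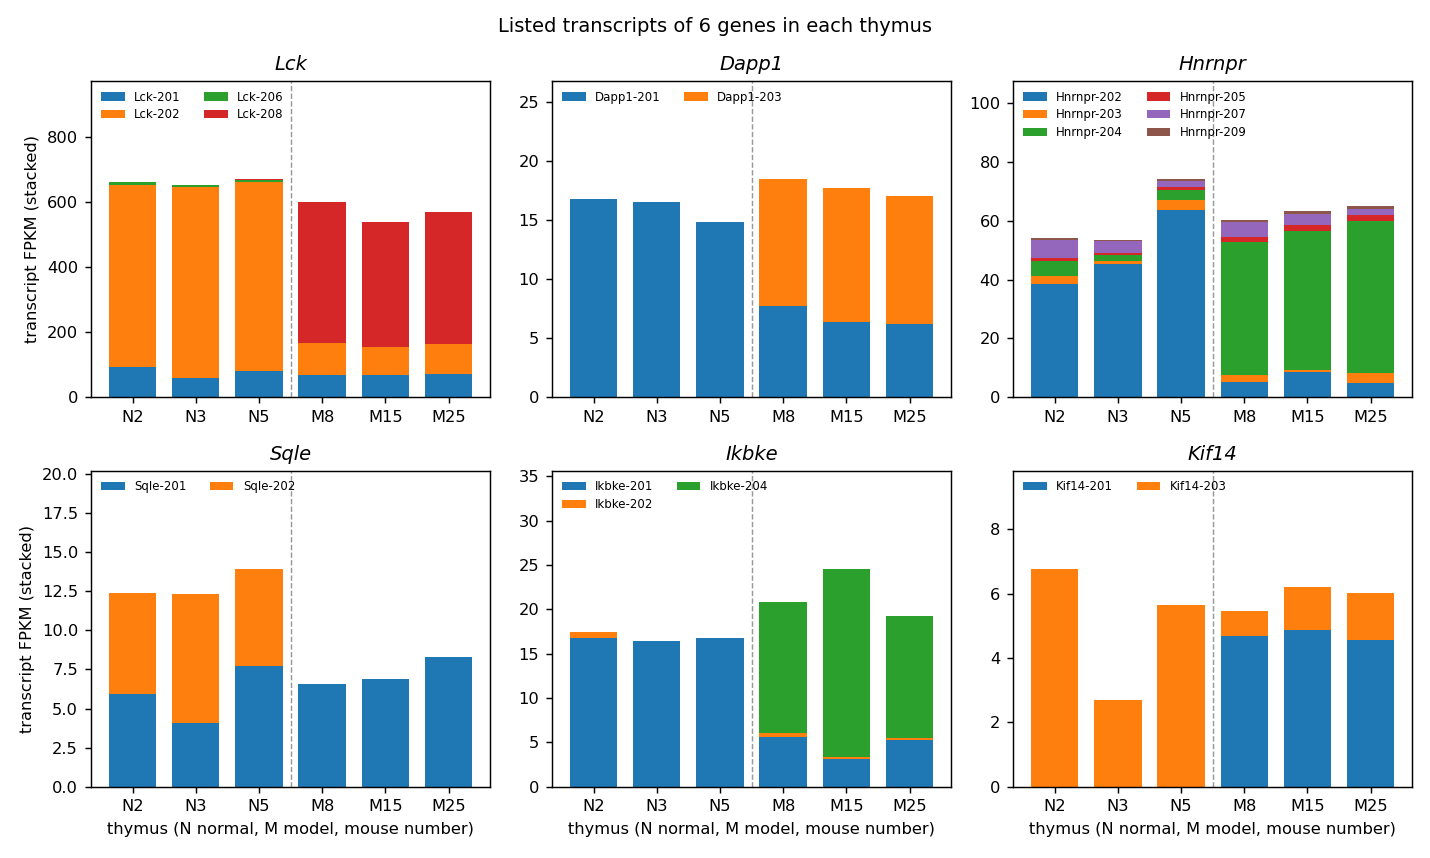
Stacked FPKM of every listed transcript of Lck, Dapp1, Hnrnpr, Sqle, Ikbke and Kif14 in each thymus (N normal, M model, with the mouse number), each panel with its own axis from 0. The transcript that dominates Lck changes from Lck-202 in the 3 normal thymi to Lck-208 in the 3 model thymi.

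In 5 further genes, sequence is shown because the 2 transcripts that moved differ in it as coding sequence. Each line is the strand of the gene, 5′ to 3′, from GENCODE M21 exons on GRCm38 (mm10). Capitals mark the longest stretch that is coding in the named transcript and not in its partner, and lower case marks flanking bases. The flanks are coding in both transcripts except after the capitals of Hnrnpr-202, where they belong to 119 bases at chr4:136316361-136316479 that are also coding only in Hnrnpr-202.
Dapp1-201: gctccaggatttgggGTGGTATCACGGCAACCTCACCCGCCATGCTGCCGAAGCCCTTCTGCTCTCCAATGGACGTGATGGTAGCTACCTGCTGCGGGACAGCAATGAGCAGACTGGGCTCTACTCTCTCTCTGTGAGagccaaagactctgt
Ikbke-201: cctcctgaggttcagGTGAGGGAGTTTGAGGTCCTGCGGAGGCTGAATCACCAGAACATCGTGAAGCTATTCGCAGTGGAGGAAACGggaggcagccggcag
Sqle-201: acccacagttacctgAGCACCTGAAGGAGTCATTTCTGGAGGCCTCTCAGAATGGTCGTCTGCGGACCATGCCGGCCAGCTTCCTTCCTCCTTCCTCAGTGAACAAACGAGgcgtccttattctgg
Hnrnpr-202: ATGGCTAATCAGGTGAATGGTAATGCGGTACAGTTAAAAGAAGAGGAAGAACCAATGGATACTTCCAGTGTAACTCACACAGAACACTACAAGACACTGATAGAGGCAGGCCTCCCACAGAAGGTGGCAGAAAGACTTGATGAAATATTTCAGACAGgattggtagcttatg
Kif14-203: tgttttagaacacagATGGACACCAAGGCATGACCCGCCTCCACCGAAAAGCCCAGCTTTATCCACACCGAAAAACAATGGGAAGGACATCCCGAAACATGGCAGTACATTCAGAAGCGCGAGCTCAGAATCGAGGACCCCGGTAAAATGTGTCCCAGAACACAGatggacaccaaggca
The capitals are 123 bases, 41 codons, at chr3:137965881-137966003 on the minus strand in Dapp1-201, and 72 bases, 24 codons, at chr1:131275707-131275778 on the minus strand in Ikbke-201. They are 96 bases, 32 codons, at chr15:59324462-59324557 on the plus strand in Sqle-201, and 157 bases at chr4:136314099-136314255 on the plus strand in Hnrnpr-202, where they begin with the start codon. In Kif14-203 they are 150 bases, 50 codons, at chr1:136468770-136468919 on the plus strand, inside its first exon, and Kif14-201 has a junction there in their place. The Kif14 stretch ends in a direct repeat of 29 bases, with 20 letters after it the same as its first and 9 before it the same as its last, so its edges can be set at several places.

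Dapp1, an adaptor that binds phosphoinositides at the membrane of lymphocytes, was listed with 1 transcript in normal thymi and with 2 in model thymi. Dapp1-203, which lacks the 41 codons, was listed at 0 in normal thymi 2, 3 and 5 and at 10.7, 11.4 and 10.9 FPKM in model thymi 8, 15 and 25 (adjusted p = 0.0043). Dapp1-201 was at 16.8, 16.6 and 14.8 FPKM in normal and at 7.72, 6.33 and 6.16 FPKM in model thymi. Its share fell from 100% in each normal thymus to 41.8%, 35.8% and 36.1% (adjusted p = 0.00141). The gene was at 12.6, 12.4 and 11.2 FPKM in normal and 13.46, 12.86 and 12.48 FPKM in model thymi, and it did not pass (adjusted p = 0.7).

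Ikbke, a kinase of the innate interferon response, changed in a similar way. Ikbke-204 was at 0, 0.00505 and 0.0875 FPKM in normal thymi and at 14.8, 21.2 and 13.8 FPKM in model thymi, a rise of 4.07 on the log2(FPKM + 1) scale (SE 0.228, adjusted p = 0.0073). The share of Ikbke-201 was 96.7%, 100% and 99.4% in normal and 27.1%, 12.6% and 27.4% in model thymi (adjusted p = 0.0182). Besides the 24 codons, the starts of these transcripts lie 2655 bases apart. The gene was at 7.39 to 8.40 FPKM in normal and 9.11 to 9.75 FPKM in model thymi and did not pass (adjusted p = 0.507).

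Hnrnpr, a nuclear RNA-binding protein, had another main transcript in model thymi while its gene level did not pass. Hnrnpr-204 rose from 4.86, 2.09 and 3.37 FPKM to 45.4, 47.1 and 51.6 FPKM (log2 change 3.51, SE 0.247, adjusted p = 0.0104). Hnrnpr-202 fell from 38.5, 45.3 and 63.8 FPKM to 5.19, 8.55 and 4.73 FPKM (log2 change -2.82, SE 0.273, adjusted p = 0.036). The coding sequence of Hnrnpr-204 is 303 bases shorter and starts further downstream than that of Hnrnpr-202. The gene changed by -0.05 and did not pass (adjusted p = 0.864).

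Sqle, the squalene epoxidase of cholesterol synthesis, lost one of its transcripts. Sqle-202, which lacks the 32 codons, was at 6.46, 8.28 and 6.19 FPKM in normal thymi and was listed at 0 in all 3 model thymi (adjusted p = 0.0104). Sqle-201 was at 5.92, 4.05 and 7.75 FPKM in normal and 6.57, 6.87 and 8.33 FPKM in model thymi, and the groups overlapped. The share of Sqle-202 thus went from 52.2%, 67.1% and 44.4% to 0% (adjusted p = 0.0218). The gene was lower in every model thymus, at 3.34, 3.48 and 4.36 FPKM against 6.04, 5.99 and 7.10 FPKM, but did not pass (log2 change -0.65, adjusted p = 0.481).

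Kif14, a kinesin of cell division, was listed only as Kif14-203 in normal thymi. Kif14-201 was listed at 0 there and at 4.67, 4.88 and 4.57 FPKM in model thymi (adjusted p = 0.0104), and the share of Kif14-203 fell from 100% in each normal thymus to 14.7%, 21.2% and 23.9% (adjusted p = 0.00141). Pttg1, the securin that delays the separation of sister chromatids until anaphase, has 6 listed transcripts. Pttg1-206 rose from 0.131, 0.0350 and 0.0460 FPKM to 11.5, 15.5 and 9.59 FPKM (log2 change 3.6, SE 0.232, adjusted p = 0.0104), and its share from no more than 0.817% to 53.9%, 63.3% and 51.2%. Its coding sequence is the same as that of Pttg1-202, whose mean share fell most, so these 2 differ outside the coding bases. The share of Pttg1-202 did not pass. It was 9.15%, 58.2% and 42.5% in normal and 7.62%, 2.59% and 26.6% in model thymi, and the groups overlapped. Tfdp2, a partner of the E2F transcription factors, was higher in each model thymus as a gene too. Tfdp2-201 rose from 0.00489, 0.402 and 0.462 FPKM to 9.003, 11.9 and 10.4 FPKM (log2 change 3.16, adjusted p = 0.0132), its share did not pass, and the gene was at 1.84, 0.645 and 0.884 FPKM against 5.27, 7.77 and 6.76 FPKM (log2 change 1.87, adjusted p = 0.234).

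Pdgfrb is a growth factor receptor of fibroblasts and pericytes. It was listed entirely as Pdgfrb-202 in the 3 normal thymi and entirely as Pdgfrb-201 in the 3 model thymi. Pdgfrb-201 was at 1.95, 2.60 and 2.25 FPKM in model thymi (adjusted p for the share = 7.16e-05). The SD of this share was 0 in both groups, so its p-value rests on the spread of other transcripts. The level of Pdgfrb-201 passed in 3 of 13 alternative settings and its share in 9 of 10. Tns1, a protein that links integrins to actin, rose in its transcript Tns1-208 from 0, 0 and 0.0902 FPKM to 5.89, 9.38 and 10.3 FPKM (adjusted p = 0.0153), and its share did not pass. Syvn1, a ubiquitin ligase of the endoplasmic reticulum, lost Syvn1-207, whose share went from 69.0%, 59.9% and 86.3% to 0% in each model thymus (adjusted p = 0.0253). The gene levels of Pdgfrb, Tns1 and Syvn1 did not pass (adjusted p from 0.481 to 0.506).

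Further transcripts were listed at 0 in all 3 normal thymi and rose in model thymi. The centrosomal ninein transcript Nin-204 reached 6.72, 3.98 and 5.23 FPKM (adjusted p = 0.0216). The ubiquitin-conjugating enzyme transcript Ube2j2-203, named outside the rule for naming, reached 4.222, 4.499 and 4.785 FPKM (adjusted p = 0.0104). This was 21.9%, 20.9% and 23.4% of its gene. In all, 21 of the 17643 transcripts (0.119%) were listed at 0 in every normal thymus and at 1 FPKM or more in every model thymus, and 6 (0.034%) showed the reverse. A value of 0 in an FPKM table can be a failed estimate, and read counts, which would set a limit, were not used here. Beside the fallen transcripts named above, Kctd20-203 fell from 15.8, 20.0 and 19.9 FPKM to 5.397, 4.596 and 5.64 FPKM (log2 change -1.65, adjusted p = 0.0372). Ints10-202, of the Integrator complex that processes small nuclear RNA, fell from 8.08, 5.16 and 7.95 FPKM to 0.0160, 0.0117 and 0.146 FPKM (adjusted p = 0.0156).

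**Figure D3:**
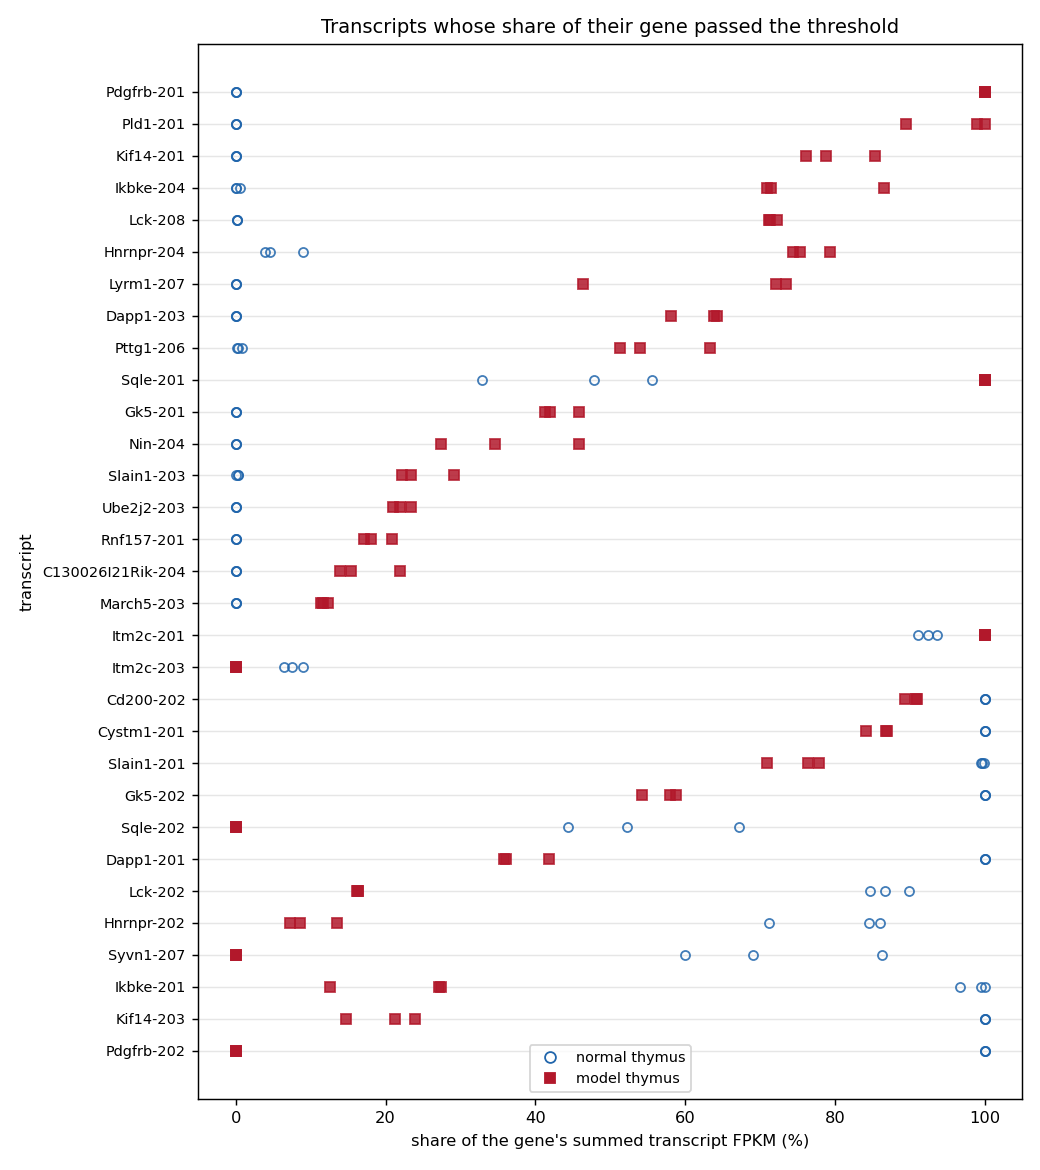
Share of each transcript in the summed FPKM of its gene (%), for 31 of the 34 transcripts whose share passed the threshold, with open circles for the 3 normal and filled squares for the 3 model thymi. The groups do not overlap for any of the 31.

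Among all shares tested, every model thymus lay above every normal thymus in 5.68% and below in 5.45%. Pairs of transcripts could be compared by structure in 24 genes. Each pair holds the matched transcripts with the largest rise and the largest fall in mean share, of which at least 1 passed. The other need not have passed or separated the groups. March5-202, the lower of its pair, changed by -0.787 points. March5-201, at 90.8% to 95.2% in normal and 80.7% to 85% in model thymi, had no match. Nin-211, another lower transcript, was at 0%, 69.9% and 0% in normal thymi 2, 3 and 5. In 21 pairs the 2 transcripts differ in coding sequence, and in 3, Lyrm1, Pld1 and Pttg1, they do not. The coding start differs in 9 pairs, and in 7 pairs the coding start and end are shared and the coding bases between them differ. The transcription starts lie over 1000 bases apart in 7 pairs. These counts describe pairs that were chosen for their values, and no share of all genes was set beside them.

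Shares were often unstable between thymi of one group. Among the 12376 shares tested, 1571 (12.7%) ranged over more than 50 points among the 3 normal thymi and 1103 (8.91%) among the 3 model thymi, with median ranges of 11.5 and 8.8 points. None of the 34 shares that passed had so wide a range within a group, which the test itself favours. Under alternative settings, 7 of the 34 passed in all 10, namely those of Lck-202, Lck-208, Dapp1-201, Dapp1-203, Hnrnpr-204, Pttg1-206 and Ube2j2-203. The other 27 passed in 1 to 9 settings, and the 22 transcript levels other than Lck-208 and Lck-202 in 3 to 12 of 13.

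The same transcripts varied in the livers and nodules too, among them between samples of one kind. Of the 34 shares, 14 ranged over more than 50 points among those 9 samples, and no share over all tested shares was set beside this count. Pdgfrb, Ikbke, Hnrnpr, Sqle and Gk5 each enter it with both transcripts of a pair. As a gene, Gk5 was at no more than 0.0336 FPKM in these samples. Lck-202 is in the count too, from 0% to 76.5%, with Lck as a gene at no more than 2.92 FPKM. Ikbke-204 ranged from 4.42% to 89.6%, Hnrnpr-202 from 0% to 75.5%, Sqle-202 from 0% to 56.6%, and Pdgfrb-201 from 0% to 100%. Dapp1-203, Kif14-201, Nin-204 and Ube2j2-203 were listed at 0% in each liver and nodule with a share. As genes, Kif14 was at no more than 0.323 FPKM there, Nin at no more than 0.5015 FPKM and Dapp1 at no more than 1.98 FPKM. A share of 0% at such low levels shows little. Ube2j2 was at 3.53 to 5.02 FPKM. The labels do not say whether transcripts of all thymi were estimated together, and the part of the estimation in these differences was not tested.

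At the gene level the smallest adjusted p was 0.099, for Fscn1, an actin-bundling protein of activated dendritic cells. Fscn1 was at 3.35, 2.47 and 3.12 FPKM in normal thymi 2, 3 and 5 and at 9.03, 11.3 and 11.9 FPKM in model thymi 8, 15 and 25, a change of 1.56 (SE 0.153) on the log2(FPKM + 1) scale. Bach2, a repressor that keeps lymphocytes from effector differentiation, was at 0.595, 0.0522 and 0.216 FPKM in normal and 1.77, 2.01 and 1.69 FPKM in model thymi (log2 change 1.15, SE 0.17, adjusted p = 0.435). Kctd20, named after its values were seen, was at 15.2, 22.4 and 25.5 FPKM in normal and 8.22, 8.00 and 8.43 FPKM in model thymi (log2 change -1.23, SE 0.182, adjusted p = 0.435). Without normal thymus 2, 9 genes passed, 6 higher and 3 lower in model thymi, and with all 15 samples in one fit 36 passed, 26 higher and 10 lower. The second fit counts samples of one mouse as independent, so its p-values may be too small. Sirpa, a receptor of macrophages and dendritic cells that passed without normal thymus 2, was at 10.99, 1.83 and 3.36 FPKM in normal and 11.7, 13.3 and 14.2 FPKM in model thymi, so normal thymus 2 lay close to the model group.

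Over all genes the median log2 change was 0.05, every model thymus was above every normal thymus for 1392 genes (12.3%), and below for 740 (6.53%). Since no gene passed, the groups of genes below are given by these counts and by their medians, with no call. Medians without 1 thymus are given where they moved most, and with fewer thymi more genes separate the groups by construction. In whole tissue, fewer cells of a type and less RNA per cell cannot be told apart.

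Genes of cholesterol synthesis stood lower in model thymi: 18 of 19 had a lower mean, 12 lay below every normal thymus (against 6.53% of all genes), and the median change was -0.45. Their summed level was 204, 188 and 231 FPKM in normal thymi and 140, 138 and 157 FPKM in model thymi, so the groups did not overlap. The median stayed between -0.57 and -0.40 under all alternatives. Cyp51, a sterol demethylase, was at 9.20, 10.1 and 10.3 FPKM against 5.10, 4.27 and 5.88 FPKM (log2 change -0.84, SE 0.138, adjusted p = 0.435). Idi1, the isomerase that supplies isoprenoid units, was at 16.3, 16.2 and 19.7 FPKM against 8.91, 6.93 and 10.2 FPKM (log2 change -0.93, adjusted p = 0.435). Hmgcs1, an early enzyme of the pathway, had a log2 change of -0.62, and Fdps, which makes farnesyl diphosphate, one of -0.90. With Sqle, these are the 5 members with the smallest p.

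Genes of the heat shock response had lower means in model thymi in 18 of 18 cases, with a median of -0.79, and 7 lay below every normal thymus. Their summed level was 2880, 3420 and 1870 FPKM in normal thymi 2, 3 and 5 and 1720, 1070 and 1880 FPKM in model thymi 8, 15 and 25. Normal thymus 5 was thus within the range of the model group, and model thymus 15 was lowest. The median was -1.03 without normal thymus 5, -0.51 without model thymus 15 and -0.40 without normal thymus 3 and model thymus 15. Hspa1a, an inducible chaperone, was at 27.0, 40.3 and 7.70 FPKM against 6.48, 5.29 and 9.15 FPKM. Chordc1, a co-chaperone, was at 57.3, 66.7 and 31.6 FPKM against 27.8, 18.0 and 29.7 FPKM (log2 change -0.98, SE 0.293, adjusted p = 0.481).

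**Figure D4:**
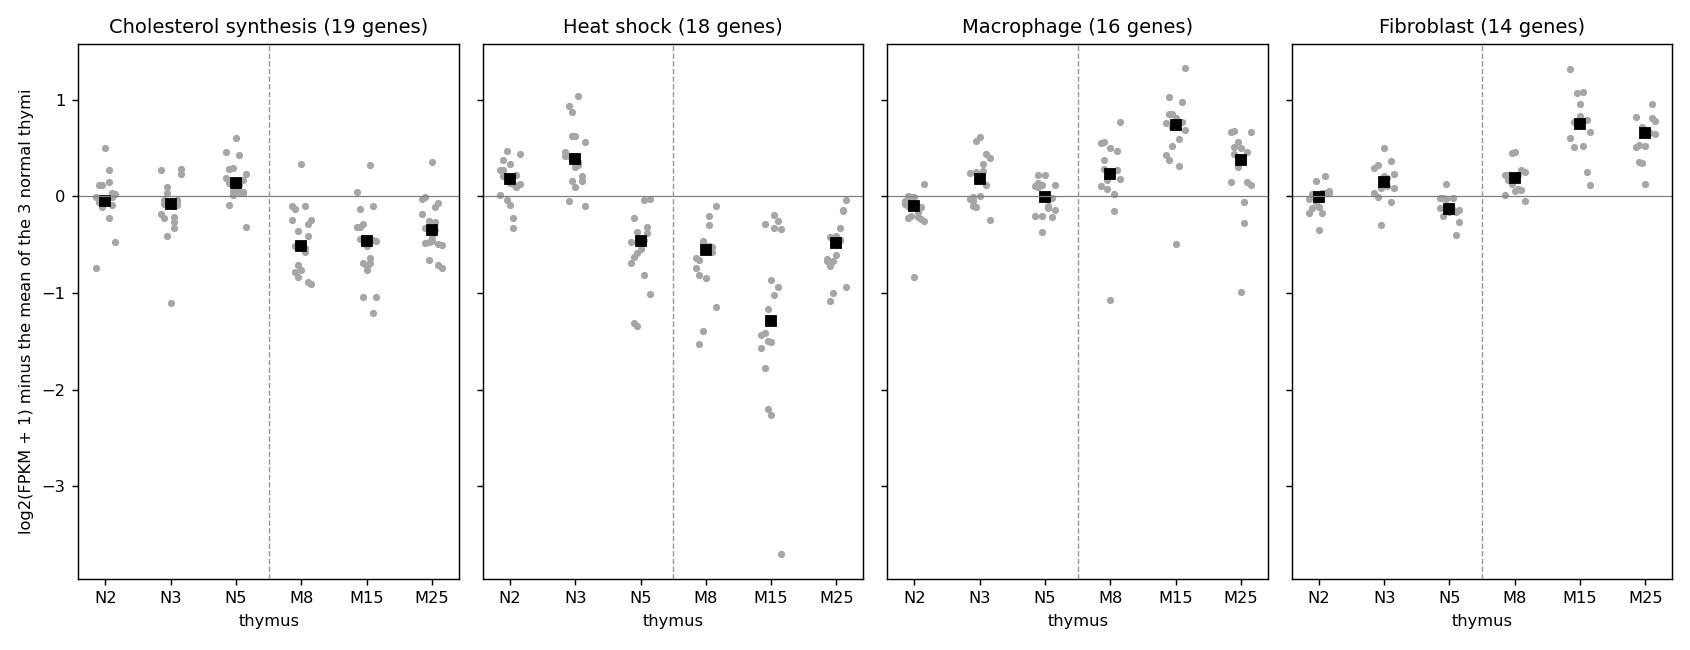
Log2(FPKM + 1) of each tested member of 4 lists in each thymus minus the mean of the 3 normal thymi, with grey dots for genes and black squares for the median. The cholesterol medians lie between -0.51 and -0.35 in model thymi, while the heat shock median of normal thymus 5, -0.46, is close to those of model thymi 8 and 25.

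Among genes of other cells of the thymus, most macrophage markers stood higher in model thymi, with 7 of 16 above every normal thymus, none below, and a median of 0.40. By their means 14 were higher and 2 lower, and 1 lower marker had an unadjusted limma p under 0.05. The summed level of the macrophage list was 323, 494 and 326 FPKM in normal and 430, 621 and 433 FPKM in model thymi, so normal thymus 3 lay within the model range. Without it the median was 0.59, and 13 of 16 lay above both remaining normal thymi. Cd163, a scavenger receptor of resident macrophages, was at 7.5, 5.55 and 7.45 FPKM against 12.3, 18.5 and 11.4 FPKM (log2 change 0.92, SE 0.2, adjusted p = 0.481). Mertk, the receptor for the uptake of dying cells, was at 3.47, 3.61 and 4.08 FPKM against 5.92, 7.01 and 6.47 FPKM (log2 change 0.66, adjusted p = 0.473). Fibroblast markers were higher by their mean in 14 of 14 cases, 5 of them above every normal thymus, with a median of 0.50. Their sums were 72.2, 80.8 and 67 FPKM in normal and 85.4, 137 and 120 FPKM in model thymi, and 12 of 14 lay above without normal thymus 3 (median 0.60). Markers of endothelium (3 of 7 above every normal thymus, median 0.37), B cells (5 of 10, median 0.34) and dendritic cells (3 of 17, median 0.30) had no member below every normal thymus. Their means were lower in model thymi for 2 of 7, 1 of 10 and 3 of 17. Without normal thymus 3, 5 of 7, 8 of 10 and 9 of 17 lay above, and 1 dendritic cell gene lay below. The dendritic cell median was 0.18 without model thymus 25. Cd79a, a part of the B cell receptor, was at 7.15, 9.28 and 6.11 FPKM against 11.6, 15.7 and 10.7 FPKM.

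Some markers of neighbouring tissues were high in 1 or 2 thymi. Adipocyte markers summed to 50.2, 92 and 103 FPKM in normal thymi 2, 3 and 5 and to 54.1, 57.1 and 51.1 FPKM in model thymi. Of 9 tested, 2, Cidec and Car3, lay below every normal thymus and 1 above, with a median of -0.59, which was -1.03 without normal thymus 2 and -0.31 without normal thymus 3. Erythroid markers summed to 225 FPKM in model thymus 8 and to between 27.9 and 108 FPKM in the other 5. Granulocyte markers were highest in normal thymus 2, at 84.2 FPKM, against 32.7 to 57.3 FPKM elsewhere. Of 19 hepatocyte markers none separated the groups, and their sums were 246 to 405 FPKM in normal and 264 to 337 FPKM in model thymi. The part of these tissues in the results was not tested.

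Markers of thymocyte stages mostly overlapped between the groups. Of 19 double-positive genes none separated the groups, and their median was 0.06, or 0.14 without normal thymus 2 and -0.01 without normal thymus 3. Rag1 was at 451, 233 and 335 FPKM in normal and 397, 339 and 413 FPKM in model thymi, and Cd4 and Cd8a, the co-receptors, overlapped between the groups as well, Cd8a at 304 to 330 FPKM against 292 to 337 FPKM. Of 16 genes of the earlier double-negative stage and Notch signalling, 1 lay above and 3 below every normal thymus, with a median of 0.05, which was 0.14 without normal thymus 2 and -0.07 without normal thymus 3. Of 24 genes of T cell receptor signalling, 5 lay above and 4 below, with a median of 0.07. Csk, the kinase that restrains Lck, was at 56.9, 62.1 and 56.3 FPKM in normal and 48.5, 47.6 and 50.8 FPKM in model thymi (log2 change -0.25, SE 0.1, adjusted p = 0.481).

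Genes of mature thymocytes and their exit had 4 of 18 members above every normal thymus, none below, and a median of 0.34. With normal thymus 3 left out, 9 lay above (median 0.34), and without normal thymus 5 the median was 0.20. Il7r, the receptor for the survival cytokine interleukin 7, was at 8.92, 10.1 and 9.31 FPKM in normal and 12.2, 14.8 and 15.7 FPKM in model thymi (log2 change 0.54, SE 0.13, adjusted p = 0.481). S1pr1 and Klf2, a receptor and a transcription factor of thymic exit, overlapped between the groups, with S1pr1 at 4.70 to 7.01 FPKM in normal and 6.45 to 8.02 FPKM in model thymi. Of 8 Gimap GTPases of lymphocyte survival 4 lay above every normal thymus, with a median of 0.35. Gimap3 was at 18.1, 22.5 and 17.9 FPKM against 28.3, 33.7 and 33.6 FPKM (log2 change 0.69, SE 0.133, adjusted p = 0.476).

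Of 15 cortical epithelial genes, 2 lay above and 2 below every normal thymus, with a median of 0.12, or 0.06 to 0.18 without 1 thymus. Psmb11 was at 35.2, 44.1 and 46.4 FPKM in normal and 32.9, 20.0 and 32.3 FPKM in model thymi (log2 change -0.57, SE 0.206, adjusted p = 0.481). Dll4, the Notch ligand that commits progenitors to the T cell fate, was at 4.82, 3.81 and 4.39 FPKM against 3.23, 1.97 and 3.41 FPKM. Ctsl, a lysosomal protease of antigen presentation, was higher in each model thymus, at 152, 165 and 148 FPKM against 125, 103 and 122 FPKM (log2 change 0.41, adjusted p = 0.481). Of 19 medullary epithelial genes, 3 lay above every normal thymus and none below, with a median of 0.14. Without normal thymus 3, 8 lay above (median 0.35), and without normal thymus 5 the median was 0.01. Aire, which drives expression of tissue antigens for tolerance, was at 2.15, 2.65 and 2.61 FPKM in normal and 3.19, 4.14 and 4.78 FPKM in model thymi (log2 change 0.53, SE 0.157, adjusted p = 0.481). Foxn1, the master regulator of thymic epithelium, overlapped, at 5.01 to 8.60 FPKM against 5.53 to 6.77 FPKM.

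Of 16 cytotoxic genes 1 lay above every normal thymus and none below, with a median of 0.23. Without normal thymus 3, 12 lay above (median 0.41), a count with no share over all genes beside it. Without normal thymus 5 the median was 0.12. Gzmb, a granule protease, overlapped at 1.54 to 2.64 FPKM against 1.53 to 2.22 FPKM. Of 17 checkpoint genes 3 lay above and none below, with a median of 0.13, or 0.05 without normal thymus 5 and 0.21 without normal thymus 3. Pdcd1, which encodes PD-1, was at 4.51 to 6.81 FPKM in normal and 4.56 to 6.02 FPKM in model thymi. Foxp3, the factor of regulatory T cells, was at 0.299, 0.373 and 0.461 FPKM in normal and 0.432, 0.521 and 0.654 FPKM in model thymi and was under the filter, so it was not tested.

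Among metabolic and cell cycle genes, 6 of 20 S phase genes lay below every normal thymus, none above, with a median of -0.20. Of these 20, 11 lay below without normal thymus 3 (median -0.25), and without model thymus 15 the median was -0.12. Rrm2, a subunit of ribonucleotide reductase, was at 110, 123 and 135 FPKM in normal and 102, 88.0 and 102 FPKM in model thymi (log2 change -0.33, SE 0.124, adjusted p = 0.481). Of 14 targets of ATF4, the transcription factor of the amino acid response, 6 lay below and 1 above, with a median of -0.27. Phgdh, the first enzyme of serine synthesis, was at 56.0, 84.5 and 63.2 FPKM against 46.1, 41.2 and 47.8 FPKM. Ribosomal protein genes had lower means in 74 of 74 cases, with a median of -0.23, but 3 lay below every normal thymus, and 12 did with median-of-ratios scaling. Their summed level was 27400 FPKM in normal thymus 3 and 16900 to 20000 FPKM in the other 5. Without normal thymus 3 the median was -0.05, and without normal thymus 2, 49 lay below with a median of -0.36.

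**Figure D5:**
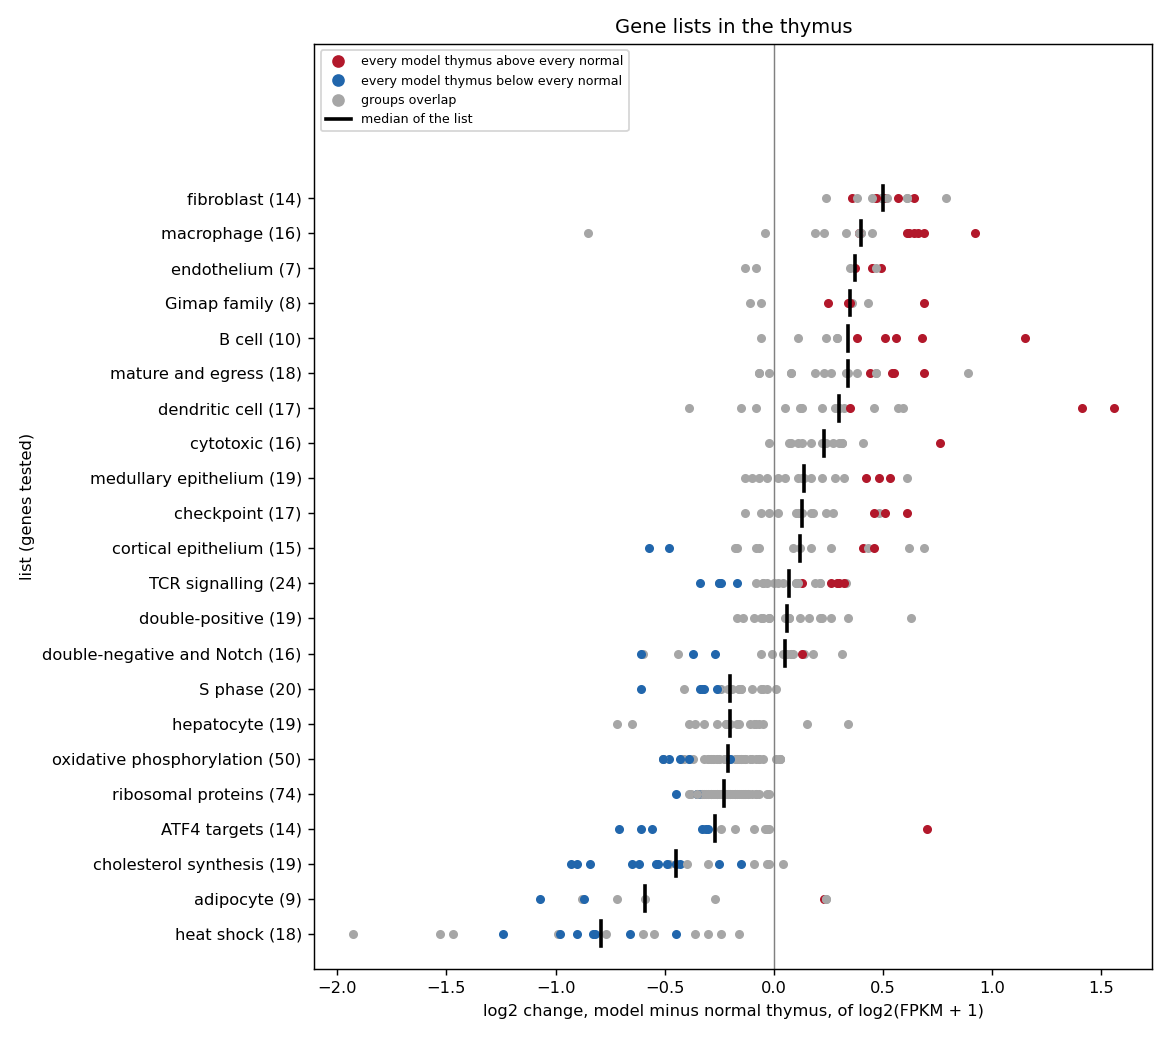
Log2 change of each tested gene in 22 lists, model minus normal thymus, on the log2(FPKM + 1) scale, with the number tested in brackets, the list's median as a black bar and colours for genes whose groups do not overlap. Medians run from -0.79 for heat shock to 0.50 for fibroblast genes, against 0.05 for all genes.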

How the data were processed

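Polyadenylated RNA of 6 thymi was compared, 3 of normal and 3 of model mice. The tables that the authors deposited hold FPKM of protein-coding genes and of their transcripts. The submitters' processing notes name StringTie 1.3.3, HISAT2 2.1.0, cutadapt and FastQC 0.11.7, and the build mm10, with no annotation release or strand setting. Gene FPKM is not the sum of its transcripts' FPKM. Read counts were not used here, so depth is unknown, no counting interval was computed and precision rests on 3 samples a group. Each sample is a separate mouse by its title.

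Features with at least 1 FPKM in at least 3 thymi were tested on log2(FPKM + 1) with limma 3.58.1 (lmFit, eBayes with trend) in R 4.3.3, two-sided, with Benjamini-Hochberg adjustment over all features and a threshold of 0.05. Shares of genes with at least 2 listed transcripts and a summed FPKM of at least 1 in each thymus were tested after an arcsine square root, with no trend. The procedure was tested on simulated data, with changes set in features with a mean of at least 5 FPKM. It recovered 60% of 2-fold and 98% of 4-fold changes of genes, and 28% and 56% of those of transcripts. Where 1 transcript of a gene was lowered, the share test found 14% at 4-fold and 54% at 16-fold. False calls were 11 genes, 5 transcripts and, by share, 7 genes. Many true changes can therefore be missed, and some calls can be false. The simulated noise was drawn separately for each transcript. Errors that move reads between transcripts of one gene are thus not imitated, and false calls from them were not assessed. Exons came from GENCODE M21, in which 120 of 125 listed transcripts of the 31 genes with a passing transcript or share matched by ID and version, with the same coordinates. The 50 gene lists and the members were chosen with earlier results of these data known. Named are transcripts and shares with the largest passing differences, up to 5 members of each list by p, and a fixed set of thymus genes. The shares of Pld1-201 and Lyrm1-207 fall under this rule too, with differences of 96.1 and 64 points. A gene or transcript outside the rule is marked where its change is given, and no set test was made. Some items are not reported here. Promoter motifs were to be described over genes that passed, and there were none. Alternatives were other pseudocounts, filters, scalings, models and leaving out each thymus.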

Additional observations from a re-analysis of the deposited data

How the results depend on the processing

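No paired analysis was possible because the mouse numbers of the normal thymi, 2, 3 and 5, and of the model thymi, 8, 15 and 25, do not overlap. The gene count was 0 under other pseudocounts, filters and scalings, with no trend and, in a setting chosen after seeing the data, without normal thymus 3 and model thymus 15. It was 36 with all 15 samples in one fit, which pools the spread of other organs and treats several samples of one mouse as independent, and 0 to 9 when leaving out 1 thymus. The transcript count of 24 became 12 with a pseudocount of 0.1 and 3 with a minimum of 5 FPKM, which tests fewer transcripts. It lay between 19 and 29 under the other filters, scalings and no trend. Leaving out 1 thymus gave 6 to 25, fewest without model thymus 25, and only 4 to 12 of these were among the 24. The share count of 34 became 21 for untransformed shares, 19 of them among the 34, and 78 with diffSplice, 26 of them among the 34. Leaving out 1 thymus gave 28 to 41 shares, of which only 14 to 20 were among the 34. Counted once per gene, the 24 genes became 13 with untransformed shares and 49 with diffSplice. The cause of these shifts was not tested, except where fewer features were tested. No value that passed changed sign under these alternatives. Of the alternatives for single transcripts, 167 kept the call and 135 missed the threshold in the same direction, and for shares 201 and 120 did. Depth is unknown, so what low transcripts can show was not assessed.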

Other observations

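Interferon-response genes had 6 of 30 members above and 3 below every normal thymus, with a median log2 change of 0.17. Antigen-presentation genes had 3 of 20 above and none below (median 0.16), and chemokine genes 2 of 24 above and none below (median 0.28). Of 17 glucocorticoid-response genes 3 lay above and 1 below (median 0.17), and of 20 immediate early genes none separated the groups (median -0.18). Glycolysis genes had 1 of 18 above and 5 below (median -0.13), proteasome genes 3 of 31 below (median -0.20) and oxidative phosphorylation genes 5 of 50 below (median -0.21). Mitochondrially encoded genes went the other way, with 5 of 13 above and a median of 0.27, and the mitochondrial share of summed FPKM was 4% in normal thymus 3 and 5.66% to 6.46% in the other 5 thymi. Genes of G2 and M phase (median 0.04), p53 targets (median -0.04), apoptosis (median 0.00) and splicing factors (median -0.05) were near the median of all genes, 0.05. Without normal thymus 3 the medians were -0.07 for oxidative phosphorylation, -0.06 for the proteasome and 0.11 for mitochondrially encoded genes. Without normal thymus 2, 37 of 50 oxidative phosphorylation genes (median -0.34) and 22 of 31 proteasome genes (median -0.30) lay below both remaining normal thymi. Chemokine genes had 12 of 24 above without normal thymus 3 (median 0.39), antigen-presentation genes 9 of 20 (median 0.33), and interferon-response genes 14 of 30 without model thymus 8 (median 0.26). The glucocorticoid median was -0.01 and the immediate early median -0.36 without normal thymus 2. No member of these lists passed the adjusted threshold, and the counts without 1 thymus have no share over all genes beside them.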
